A study of Mus musculus with 36 samples.

Results

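The genes described here are 10 products of maturing and mature neutrophils, namely Ngp, Camp, Ltf, Lcn2, S100a8, S100a9, Mmp8, Mmp9, Cxcr2 and Csf3r. They were taken as the rows of the deposited tables whose NCBI gene number maps to these mouse symbols. All 10 of the 10 were present in the single-end table, among 17697 rows, and in the paired-end table, among 19001 rows. Ngp, Camp, Ltf, Lcn2 and Mmp8 encode proteins of the secondary granules. S100a8 and S100a9 encode cytosolic proteins, Mmp9 a protease of the later gelatinase granules, and Cxcr2 and Csf3r receptors of the cell surface, so the 10 genes together are called neutrophil genes below.

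On GRCm38, RefSeq places Ngp at chr9:110419808-110423012, Camp at chr9:109847377-109849456, Ltf at chr9:111019292-111042766 and Mmp8 at chr9:7558429-7568486. Lcn2 is at chr2:32384637-32387739 and Mmp9 at chr2:164940326-164955850, while S100a8 at chr3:90669071-90670034 and S100a9 at chr3:90692630-90695721 are neighbours. Cxcr2 is at chr1:74153994-74161246 and Csf3r at chr4:126023441-126044975.

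A neutrophil fills its granules in sequence as it matures, so that each class of granule carries the proteins made at one stage. Myeloperoxidase and the serine proteases of the primary granules are made at the promyelocyte stage, the secondary granule proteins at the myelocyte stage, and the gelatinase granules and the receptors that answer chemokines and granulocyte colony-stimulating factor appear later. Most of this takes place in bone marrow, and the red pulp of the mouse spleen also makes and holds neutrophils.

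Liver, spleen and thymus RNA was sequenced from mice whose p53 lacks its C-terminus (d24) and from mice with wild-type p53 (wt), to ask, in the words of the series title, about liver gene regulation and radio-resistance. The single-end table held 3 d24 and 3 wt libraries of each tissue, all 18 titled xray. The paired-end table held 3 X-ray and 3 untreated wt libraries of each tissue, with 2 Gy at 3 h named among the characteristics of the X-ray ones. Titles and characteristics disagree in the single-end table, where 9 libraries titled xray carry the treatment control and the 9 titled d24 carry the cell type WT. The groups follow the titles. By the treatment characteristics instead, the d24 livers and thymuses would be unirradiated and their wt counterparts irradiated, and the d24 spleens irradiated and their wt counterparts not. Should the treatment characteristics hold and the titled genotypes too, genotype and irradiation cannot be told apart in any d24 comparison. Should the cell type hold as well, the libraries titled d24 would be wt, and no comparison would show a d24 difference as named. The labels give no animal, age or sex, so a p-value measures the spread between these libraries, which may be technical. In bulk tissue, fewer neutrophils and less RNA per neutrophil cannot be told apart.

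Levels are the deposited signal, that is reads of a gene per 1000000 reads of a scaled library. The d24 and wt libraries held 20481048 to 38042710 reads and the paired-end ones 44348579 to 81322683, so that 1 read was worth between 0.00991 and 0.0828 units of signal. Replicates correlated over all genes at 0.915 to 0.987 in the single-end groups and at 0.985 to 0.996 in the paired-end groups. Liver and thymus markers followed the labels. The 8 hepatocyte genes summed to 283418 to 423424 in livers, against 11.8 to 552 in spleens and 5.03 to 1557 in thymuses. The 8 T cell genes summed to 4338 to 7788 in thymuses. B cell genes, the spleen marker, overlapped between tissues in the single-end table. There they summed to 64.2 to 661 in spleens, against 7.52 to 79.1 in livers and 22.7 to 65.6 in thymuses. In the paired-end table they summed to 1163 to 2194 in spleens and at most 120.9 elsewhere. The signal of Trp53 as a whole gene does not check a C-terminal deletion. Differences are log2(signal + 0.5) values, given ± SE, tested with limma and Benjamini-Hochberg adjustment over all genes of a comparison, and a gene is called at an adjusted p under 0.05. Both tables were normalised separately, so each test stays within 1 table.

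The promoters of the 5 secondary granule genes are shown because these genes define the granule class. RefSeq on GRCm38.p6 gave the 250 bases upstream of the start of 9 of the 10 genes. The letters searched were the C/EBP motif TTGCNNAA and the PU.1 motif GAGGAA, both read on either strand (TTNNGCAA and TTCCTC), and no match of either overlapped the other in the promoters printed. Capitals mark the matches.
Ngp, chr9:110419558-110419807, plus strand: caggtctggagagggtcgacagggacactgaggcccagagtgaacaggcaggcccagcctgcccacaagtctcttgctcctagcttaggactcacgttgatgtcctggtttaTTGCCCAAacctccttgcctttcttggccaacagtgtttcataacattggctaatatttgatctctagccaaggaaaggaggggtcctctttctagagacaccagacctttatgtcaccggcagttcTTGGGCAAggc
Camp, chr9:109849457-109849706, minus strand: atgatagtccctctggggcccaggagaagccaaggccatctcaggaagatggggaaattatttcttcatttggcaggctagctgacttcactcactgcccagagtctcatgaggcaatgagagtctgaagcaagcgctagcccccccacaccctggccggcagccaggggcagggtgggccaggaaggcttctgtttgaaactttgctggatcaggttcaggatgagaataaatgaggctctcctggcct
Ltf, chr9:111019042-111019291, plus strand: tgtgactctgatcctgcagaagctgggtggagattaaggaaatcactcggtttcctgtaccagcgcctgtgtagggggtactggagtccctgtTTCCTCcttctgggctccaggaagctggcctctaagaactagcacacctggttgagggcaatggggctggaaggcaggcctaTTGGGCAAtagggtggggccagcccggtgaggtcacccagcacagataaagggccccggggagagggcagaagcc
Lcn2, chr2:32387740-32387989, minus strand: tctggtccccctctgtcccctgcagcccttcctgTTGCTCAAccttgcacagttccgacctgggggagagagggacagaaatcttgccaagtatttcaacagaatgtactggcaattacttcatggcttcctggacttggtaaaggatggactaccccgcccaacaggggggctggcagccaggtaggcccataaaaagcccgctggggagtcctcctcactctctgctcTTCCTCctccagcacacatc
Mmp8, chr9:7558179-7558428, plus strand: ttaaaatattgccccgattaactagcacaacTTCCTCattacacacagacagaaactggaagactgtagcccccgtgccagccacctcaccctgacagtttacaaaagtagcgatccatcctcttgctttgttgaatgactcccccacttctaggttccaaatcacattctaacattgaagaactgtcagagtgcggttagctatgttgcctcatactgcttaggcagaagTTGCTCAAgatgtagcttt

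Ngp had the C/EBP letters at 138 and at 11 bases before its start, and Ltf had them at 75, Lcn2 at 216 and Mmp8 at 19 bases. S100a9 was the other gene with that motif, at 236 bases. Of the 9 promoters 5 held the C/EBP letters, a motif present in 9.56% of 32851 RefSeq promoters of this length. PU.1 letters stood in 6 of the 9, against 23.3% of all promoters, and these were Ltf at 157 bases, Lcn2 at 20, Mmp8 at 219, S100a8 at 170 and 36, Cxcr2 at 81 and Csf3r at 86. Camp held neither motif in this window. A match is a description of letters and not of binding.

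In spleen, Ngp, Camp, Ltf, Lcn2, S100a8 and S100a9 fell in d24 relative to wt, while Mmp8, Mmp9 and both receptors did not pass the test. Ngp, a cystatin-related granule protein, had a signal of 307, 90.8 and 28.9 in the d24 spleens, against 948, 1134 and 2343 in the wt spleens. Camp, the cathelicidin antimicrobial peptide, read 31.5, 12.9 and 5.94 in d24 spleens, against 183, 219.7 and 931 in wt spleens. Every d24 spleen lay below every wt spleen for both genes, and replicate 3 was the lowest of the d24 spleens and the highest of the wt spleens. On the log2 scale Ngp fell by 3.86 ± 0.65 (adjusted p = 0.00876) and Camp by 4.58 ± 0.62 (adjusted p = 0.00206).

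Ltf, which encodes lactoferrin, the iron-binding protein of secondary granules, had signals of 93.1, 17.9 and 10.4 in d24 spleens, against 215, 261 and 196 in wt spleens. Lcn2, lipocalin 2, which binds bacterial siderophores, had 100.2, 26.3 and 8.68 in d24 spleens, against 198, 243 and 447 in wt spleens. Neither gene overlapped between the groups, and d24 replicate 1 came closest to wt for both. The log2 difference was -3.07 ± 0.59 for Ltf (adjusted p = 0.0184) and -3.26 ± 0.65 for Lcn2 (adjusted p = 0.0227).

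S100a8 and S100a9, the subunits of calprotectin, which binds zinc and manganese, behaved alike in direction. S100a8 reached 185, 48.4 and 13.3 in d24 spleens, against 464, 549 and 1709 in wt spleens, and fell by 3.92 ± 0.74 on the log2 scale (adjusted p = 0.0168). S100a9 reached 280.4, 89.0 and 46.6 in d24 spleens, against 677, 911 and 2617 in wt spleens, and fell by 3.47 ± 0.60 (adjusted p = 0.00969). The mean signal of wt spleens was 11.0 times that of d24 spleens for S100a8 and 10.1 times for S100a9.

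The collagenase gene Mmp8 had 27.0, 7.84 and 3.58 in d24 spleens, against 39.0, 41.9 and 24.01 in wt spleens. Mmp9, the gelatinase gene, had 26.2, 11.7 and 7.04 in d24 spleens, against 28.0, 32.0 and 16.7 in wt spleens. Neither passed the test, with log2 differences of -1.82 ± 0.57 for Mmp8 (adjusted p = 0.152) and -0.90 ± 0.46 for Mmp9 (adjusted p = 0.439), and for both genes d24 replicate 1 lay within the wt range.

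Of the receptors, Cxcr2, which binds the neutrophil-attracting CXC chemokines, had 7.68, 2.07 and 4.42 in d24 spleens, against 9.99, 10.003 and 8.20 in wt spleens. Csf3r, the receptor for granulocyte colony-stimulating factor, had 13.2, 10.5 and 11.7 in d24 spleens, against 12.2, 17.4 and 25.6 in wt spleens. The log2 differences of -1.07 ± 0.49 for Cxcr2 (adjusted p = 0.368) and -0.56 ± 0.37 for Csf3r (adjusted p = 0.582) did not pass. The wt mean was 1.99 times the d24 mean for Cxcr2, 1.56 times for Csf3r, 1.71 times for Mmp9 and 2.73 times for Mmp8. For the 6 called genes it ran from 5.54 times for Ltf to 26.5 times for Camp, and the difference between these genes was not tested.

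Altogether 6 of the 10 genes were called lower in d24 spleen, where 1.24% of 13554 tested genes were called lower and 2.28% in either direction. In 7 genes the groups did not overlap, against 10.6% of all genes lower without overlap. The median log2 difference over the 10 was -3.16, beside -0.05 over all tested genes. The wt spleens and livers of this table had higher summed neutrophil signal than the paired-end X-ray ones, as given under Other observations. These calls rest on few libraries. The calls numbered 1 without d24 replicate 2, 2 without d24 replicate 3, 4 without wt replicate 3 and 7 without d24 replicate 1, and edgeR on the recovered reads called Camp alone, which was called in all 12 alternatives run.

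**Figure D1:**
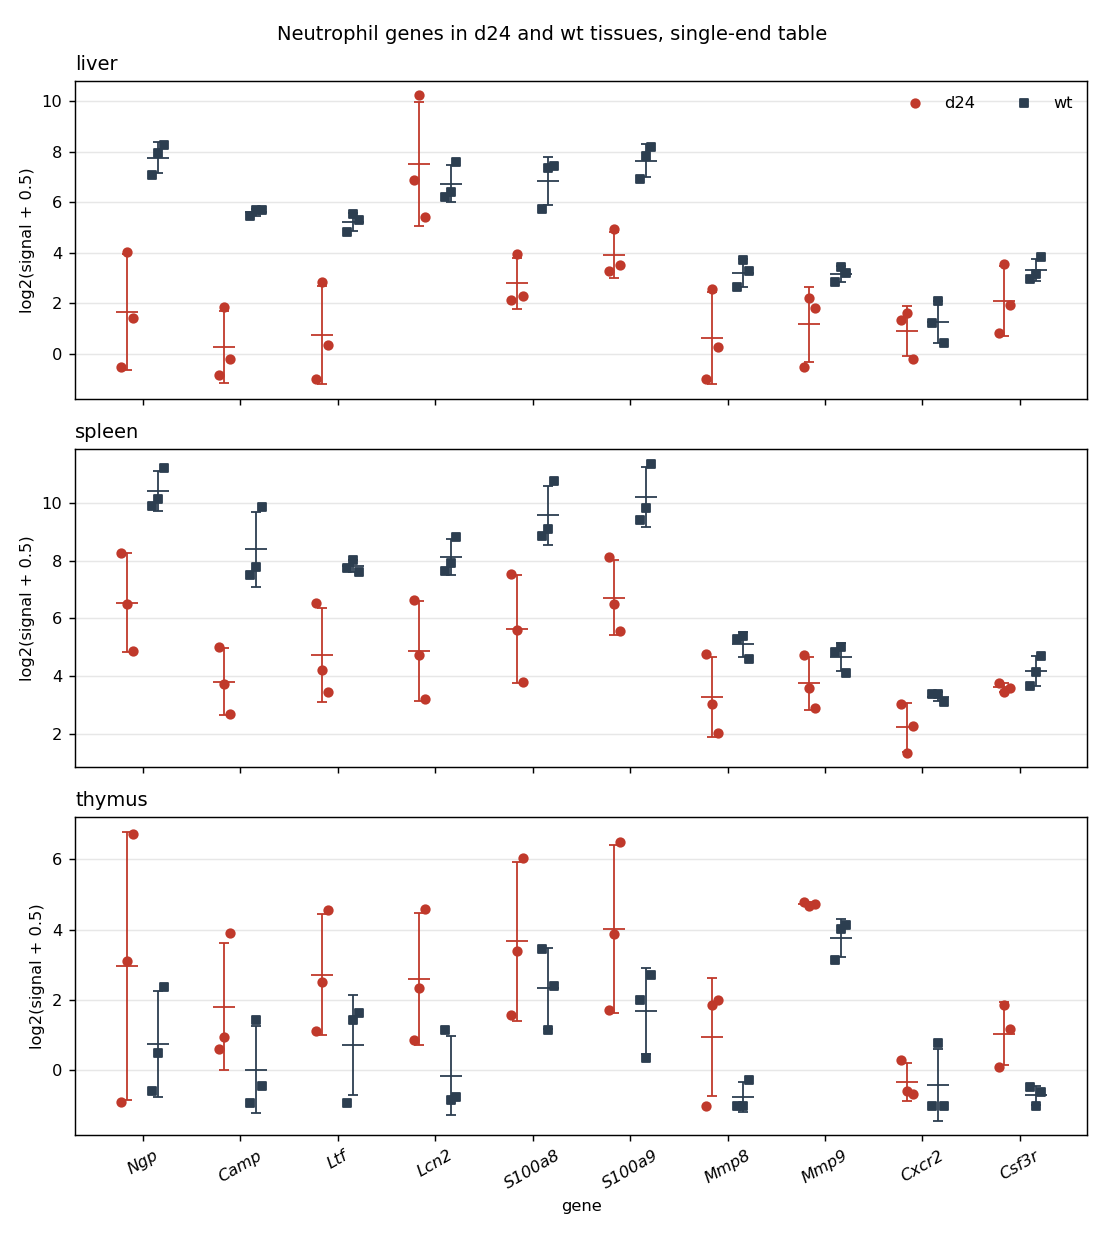
Signal of the 10 neutrophil genes in the single-end libraries, as log2(signal + 0.5) on the vertical axis, with d24 (red circles) left of wt (dark squares) in each tissue. Points are libraries, and bars give the mean ± SD of 3. In spleen every d24 point lies below every wt point for Ngp, Camp, Ltf, Lcn2, S100a8, S100a9 and Cxcr2, while in liver d24 replicate 2 stands at the top for Lcn2.

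In liver Ngp, Camp, Ltf, S100a8 and S100a9 fell in d24 relative to wt, while Lcn2, Mmp8, Mmp9 and both receptors did not pass the test. Ngp had 0.187, 15.9 and 2.18 in d24 livers, against 135, 244 and 309 in wt livers, and fell by 6.13 ± 0.90 on the log2 scale (adjusted p = 0.0214). Camp had 0.0623, 3.12 and 0.351 in d24 livers, against 42.9, 51.7 and 50.5 in wt livers, and fell by 5.34 ± 0.63 (adjusted p = 0.0128). The lowest of these values rest on few reads, since d24 replicate 1 held 3 reads of Ngp and 1 of Camp, against 2051 and 653 in wt replicate 1.

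Ltf was at 0 in d24 replicate 1 and at 6.73 and 0.773 in the others, against 27.5, 46.1 and 38.9 in wt livers, with a log2 difference of -4.48 ± 0.80 (adjusted p = 0.0449). S100a8 had 3.80, 14.9 and 4.43 in d24 livers, against 52.4, 165 and 173 in wt livers, and fell by 4.06 ± 0.57 (adjusted p = 0.0173). For S100a9 the signals were 9.22, 30.04 and 10.9 in d24 livers, against 120.3, 229 and 291 in wt livers, with a fall of 3.74 ± 0.46 (adjusted p = 0.0132). In each of these 5 genes d24 replicate 2 was the highest of the d24 livers and still lay below every wt liver.

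Mmp8 at 0, 5.45 and 0.702 in d24 livers, against 5.65, 12.5 and 9.29 in wt livers, and Mmp9 at 0.187, 4.17 and 3.02 in d24 livers, against 6.63, 10.3 and 8.68 in wt livers, also did not overlap. Their log2 differences of -2.59 ± 0.82 (adjusted p = 0.212) and -1.99 ± 0.70 (adjusted p = 0.260) did not pass. The receptors overlapped, with Cxcr2 at 1.99, 2.56 and 0.351 in d24 livers, against 1.84, 3.73 and 0.844 in wt livers, and Csf3r at 1.25, 11.4 and 3.30 in d24 livers, against 7.29, 8.44 and 13.6 in wt livers.

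Lcn2 went its own way in liver. It had 118, 1200.02 and 42.3 in d24 livers, against 73.6, 84.6 and 193 in wt livers, so that d24 livers held both the highest and the lowest value. The log2 difference of 0.77 ± 0.95 (adjusted p = 0.770) did not pass and read -0.58 without d24 replicate 2. Hepatocytes also make Lcn2 in the acute phase response. The library with 1200.02 stood apart in some acute phase genes too, which were named after their values were seen. Hamp, of the same list, went the other way, with its lowest d24 liver value in that library. Saa1, the serum amyloid gene, had 61.0 in that library, against 6.11 and 3.65 in the other d24 livers and 5.12 to 8.03 in wt livers. Orm1 and Orm2, the orosomucoid genes, had 507.6 and 67.6 there, while the other d24 livers had 38.4 and 63.8 for Orm1 and 0 and 0.632 for Orm2. The 10 acute phase genes summed to 12711, 25126 and 12251 in d24 livers, against 9290.3, 11255 and 8212 in wt livers, and their part in the Lcn2 values was not tested. The ratio of Lcn2 to Ngp ran from 19.4 to 633 in d24 livers, against 0.347 to 0.624 in wt livers.

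In all, 5 of the 10 genes were called lower in d24 liver, beside 0.248% of 13695 tested genes called lower and 0.526% in either direction. The groups did not overlap in 7 genes, all lower in d24, against 11.5% of all genes. The median of the 10 was -3.17 and that of all tested genes -0.08. The calls numbered 1 without d24 replicate 1, 2 without wt replicate 1, 0 without wt replicate 2 and 3 without wt replicate 3, and edgeR called 0 of the 10, with adjusted p from 0.0502 upward, where 7 genes had an unadjusted p under 0.05 in limma.

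In thymus most of the values lay the other way, higher in d24, and no neutrophil gene passed the test. Ngp had 0.0341, 8.09 and 104 in d24 thymuses, against 0.163, 0.895 and 4.70 in wt thymuses. Camp had 1.02, 1.42 and 14.3 in d24 thymuses, against 0.0272, 2.19 and 0.236 in wt thymuses. S100a9 had 2.76, 14.0 and 88.6 in d24 thymuses, against 3.53, 0.772 and 6.08 in wt thymuses. The groups overlapped in all 3 genes, as they did in the next 3. Ltf had 1.66, 5.19 and 22.9 in d24 thymuses, against 0.0272, 2.19 and 2.60 in wt thymuses. Lcn2 had 1.33, 4.58 and 23.4 in d24 thymuses, against 1.71, 0.0617 and 0.0886 in wt thymuses. S100a8 had 2.46, 10.02 and 65.1 in d24 thymuses, against 10.4, 1.73 and 4.75 in wt thymuses. Replicate 3 carried most of the d24 signal in each of these 6 genes, and its summed signal over the 10 genes was 350.1, against 37.8 and 74.6 in the other d24 thymuses and 24.5 to 35.9 in wt thymuses.

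That library stood apart in markers of other cells as well. Its 8 hepatocyte genes summed to 1325, against 39.2 and 99.8 in the other d24 thymuses and 5.03 to 15.8 in wt thymuses. Its 12 erythroid genes summed to 1352, against 93.8 and 97.9 in the other d24 thymuses and 110.7 to 210.4 in wt thymuses, and its T cell sum of 4338 was the lowest of the 6. The part of these other cells in the neutrophil values was not tested. Without that library the log2 differences were 0.75 for Camp, 1.10 for Ltf, 1.76 for Lcn2, 0.15 for S100a8 and 1.09 for S100a9.

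Mmp9 was the exception to that spread, at 27.3, 24.8 and 26.0 in d24 thymuses, against 8.37, 15.6 and 16.9 in wt thymuses. Its groups did not overlap, and its difference of 0.97 ± 0.31 (adjusted p = 0.350) held at 0.97 without d24 replicate 3. Csf3r, at 0.563, 3.15 and 1.75 in d24 thymuses, against 0.217, 0 and 0.148 in wt thymuses, was the other gene without overlap, and it was too low to be tested. Mmp8, at 0, 3.10 and 3.499 in d24 thymuses, against 0, 0 and 0.325 in wt thymuses, and Cxcr2, at 0.717, 0.167 and 0.123 in d24 thymuses, against 0, 1.20 and 0 in wt thymuses, were also too low. With limma 0 of the 7 genes tested were called, 3 had an unadjusted p under 0.05 and edgeR called 0, where 0.00724% of 13818 tested genes were called. Over all genes 9.02% were higher without overlap.

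The d24 difference was then compared between tissues in the 18 single-end libraries. An F test for a tissue-dependent difference called 3 of the 10 genes, beside 0.988% of 16092 tested genes. These were Camp (F = 20.1, adjusted p = 0.0101), S100a9 (F = 14.5, adjusted p = 0.0247) and Ltf (F = 13.3, adjusted p = 0.0348). The thymus difference of Camp exceeded that of liver by 7.13 ± 1.24 (adjusted p = 0.0325) on the log2 scale, and the spleen difference lay below that of thymus by -6.37 ± 1.24 (adjusted p = 0.0206). Between spleen and liver 0 of the 10 genes were called by limma, with adjusted p from 0.348 to 0.997, beside 0.503% of all genes. For Camp that contrast was 0.76 ± 1.24 (adjusted p = 0.941). Between spleen and thymus 0.652% of all genes were called and between thymus and liver 0.298%. The 3 calls became 1 without d24 thymus replicate 2, wt liver replicate 2, or wt thymus replicate 1 or 2, and became 5 without d24 liver replicate 2 and 6 without d24 thymus replicate 1.

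**Figure D2:**
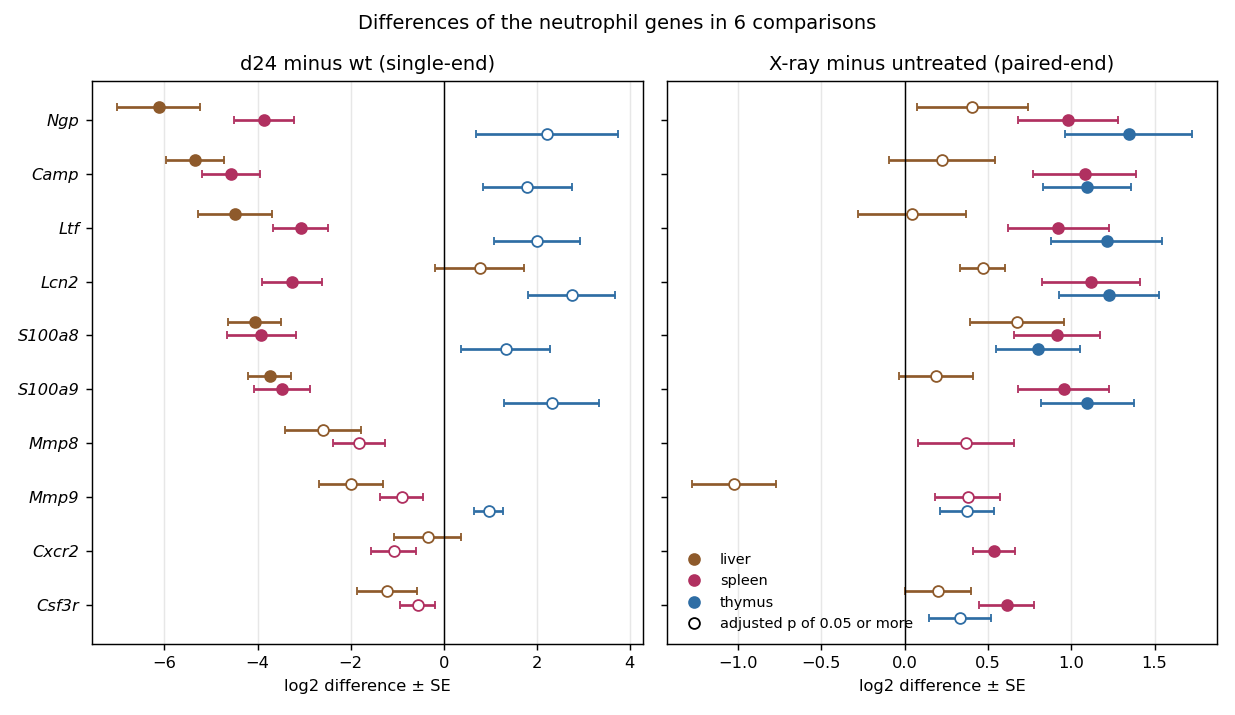
Log2 differences ± SE of the 10 genes, d24 minus wt on the left and X-ray minus untreated on the right, with liver in brown, spleen in crimson and thymus in blue. Filled points passed an adjusted p of 0.05 and open points did not, and genes too low to test are left out. In d24 the liver and spleen points lie left of 0, apart from Lcn2 in liver at 0.77, and the thymus points right of it, while after X-rays the spleen and thymus points lie right of 0.

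After X-rays, wt spleens had more signal of the neutrophil genes than untreated wt spleens. Ngp had 251, 258 and 112 in X-ray spleens, against 82.0, 123 and 92.4 in untreated spleens, and rose by 0.98 ± 0.30 on the log2 scale (adjusted p = 0.0301). Camp had 92.0, 78.7 and 35.9 in X-ray spleens, against 25.01, 36.2 and 29.6 in untreated spleens, and rose by 1.08 ± 0.31 (adjusted p = 0.0225). X-ray replicate 3 was the lowest of its group and overlapped the untreated range in both genes.

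Ltf, at 70.8, 81.9 and 34.8 in X-ray spleens, against 24.4, 40.7 and 29.3 in untreated spleens, showed the same overlap and rose by 0.92 ± 0.30 (adjusted p = 0.0376). Lcn2 had 64.7, 68.4 and 28.7 in X-ray spleens, against 20.0, 27.2 and 22.01 in untreated spleens, and rose by 1.12 ± 0.29 (adjusted p = 0.0160). Lcn2 did not overlap, though its lowest X-ray value stood just above its highest untreated value.

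S100a8 had 189.9, 173 and 88.4 in X-ray spleens, against 70.2, 86.2 and 70.8 in untreated spleens, a rise of 0.92 ± 0.26 (adjusted p = 0.0212). S100a9 had 361, 302 and 153 in X-ray spleens, against 125, 145 and 126 in untreated spleens, a rise of 0.95 ± 0.27 (adjusted p = 0.0230). Both kept their groups apart, and the mean signal was 1.99 times as high after X-rays for S100a8 and 2.06 times for S100a9.

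Cxcr2 had 8.31, 9.77 and 10.8 in X-ray spleens, against 6.10, 6.85 and 6.38 in untreated spleens. Csf3r had 13.6, 17.7 and 12.8 in X-ray spleens, against 7.77, 9.36 and 11.2 in untreated spleens. The receptors rose with the granule genes, by 0.54 ± 0.13 for Cxcr2 (adjusted p = 0.00999) and 0.61 ± 0.16 for Csf3r (adjusted p = 0.0181), and in Cxcr2 the X-ray replicate that was lowest for Ngp was the highest. Mmp8, at 8.12, 5.78 and 3.67 in X-ray spleens, against 5.38, 4.95 and 2.77 in untreated spleens, and Mmp9, at 9.81, 10.8 and 6.08 in X-ray spleens, against 6.09, 7.10 and 6.51 in untreated spleens, did not pass (adjusted p = 0.331 and 0.150).

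Thus 8 of the 10 genes were called higher, in a comparison where 19.5% of 13389 tested genes were called higher and 40% in either direction. The groups did not overlap in 5 genes, against 24.5% of all genes higher without overlap. The median difference of the 10 was 0.92, beside -0.03 over all tested genes. Leaving out untreated replicate 1 left 1 call, leaving out untreated replicate 3 left 2, and leaving out X-ray replicate 3 gave 9, and Cxcr2 was called in all 12 alternatives run. The X-ray spleens also held more hepatocyte RNA, with 7 of the 7 hepatocyte genes tested called higher and summed signals of 97.5, 552 and 469 in X-ray spleens, against 54.9, 45.2 and 65.7 in untreated spleens. X-ray replicate 1, with the lowest of these 3 sums, had some of the highest neutrophil values, and the part of that RNA in the neutrophil result was not tested.

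In thymus the X-ray difference had the same direction as in spleen, at lower levels. Ngp had 6.90, 22.7 and 13.3 in X-ray thymuses, against 3.65, 3.80 and 7.62 in untreated thymuses, and rose by 1.35 ± 0.38 (adjusted p = 0.0343). Camp had 2.61, 6.46 and 3.80 in X-ray thymuses, against 1.38, 1.54 and 1.99 in untreated thymuses, and rose by 1.09 ± 0.26 (adjusted p = 0.0186). X-ray replicate 2 was the highest for both genes, and Camp did not overlap between the groups.

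Lcn2, at 3.56, 8.73 and 5.84 in X-ray thymuses, against 1.69, 1.75 and 3.26 in untreated thymuses, rose by 1.23 ± 0.30 (adjusted p = 0.0197). S100a9, at 16.6, 37.0 and 23.0 in X-ray thymuses, against 9.39, 9.04 and 15.8 in untreated thymuses, rose by 1.10 ± 0.28 (adjusted p = 0.0226). Ltf, at 4.00, 9.44 and 5.92 in X-ray thymuses, against 1.62, 1.85 and 4.11 in untreated thymuses, rose by 1.21 ± 0.33 (adjusted p = 0.0303), with X-ray replicate 1 inside the untreated range. S100a8, at 11.5, 23.0 and 15.9 in X-ray thymuses, against 7.91, 7.37 and 12.7 in untreated thymuses, was nearest the threshold, with a rise of 0.80 ± 0.25 (adjusted p = 0.0486), and edgeR left it at an adjusted p of 0.0554.

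Mmp9 had 16.5, 17.7 and 24.1 in X-ray thymuses, against 14.6, 12.3 and 17.6 in untreated thymuses, with a difference of 0.37 ± 0.16 (adjusted p = 0.130). Csf3r, at 1.89, 2.60 and 3.31 in X-ray thymuses, against 1.84, 1.83 and 2.10 in untreated thymuses, differed by 0.33 ± 0.18 (adjusted p = 0.224). Mmp8, at 0.286, 2.26 and 1.53 in X-ray thymuses, against 0.413, 0.624 and 0.811 in untreated thymuses, and Cxcr2, at 0.274, 0.724 and 0.381 in X-ray thymuses, against 0.258, 0.258 and 0.324 in untreated thymuses, were too low to test. The called genes numbered 6 of the 8 tested, beside 9.77% of 13810 tested genes called higher and 21.3% in either direction. In 3 genes the groups did not overlap, against 18.6% of all genes. The median of the 8 was 1.10, beside 0.01 over all tested genes. Leaving out untreated replicate 1 left 0 calls and untreated replicate 2 left 1, while leaving out X-ray replicate 2 left 3 and X-ray replicate 3 left 1. Hepatocyte sums were 178, 199 and 1557 in X-ray thymuses, against 219, 59.9 and 78.4 in untreated thymuses, and the part of that RNA in the neutrophil values was not tested.

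**Figure D3:**
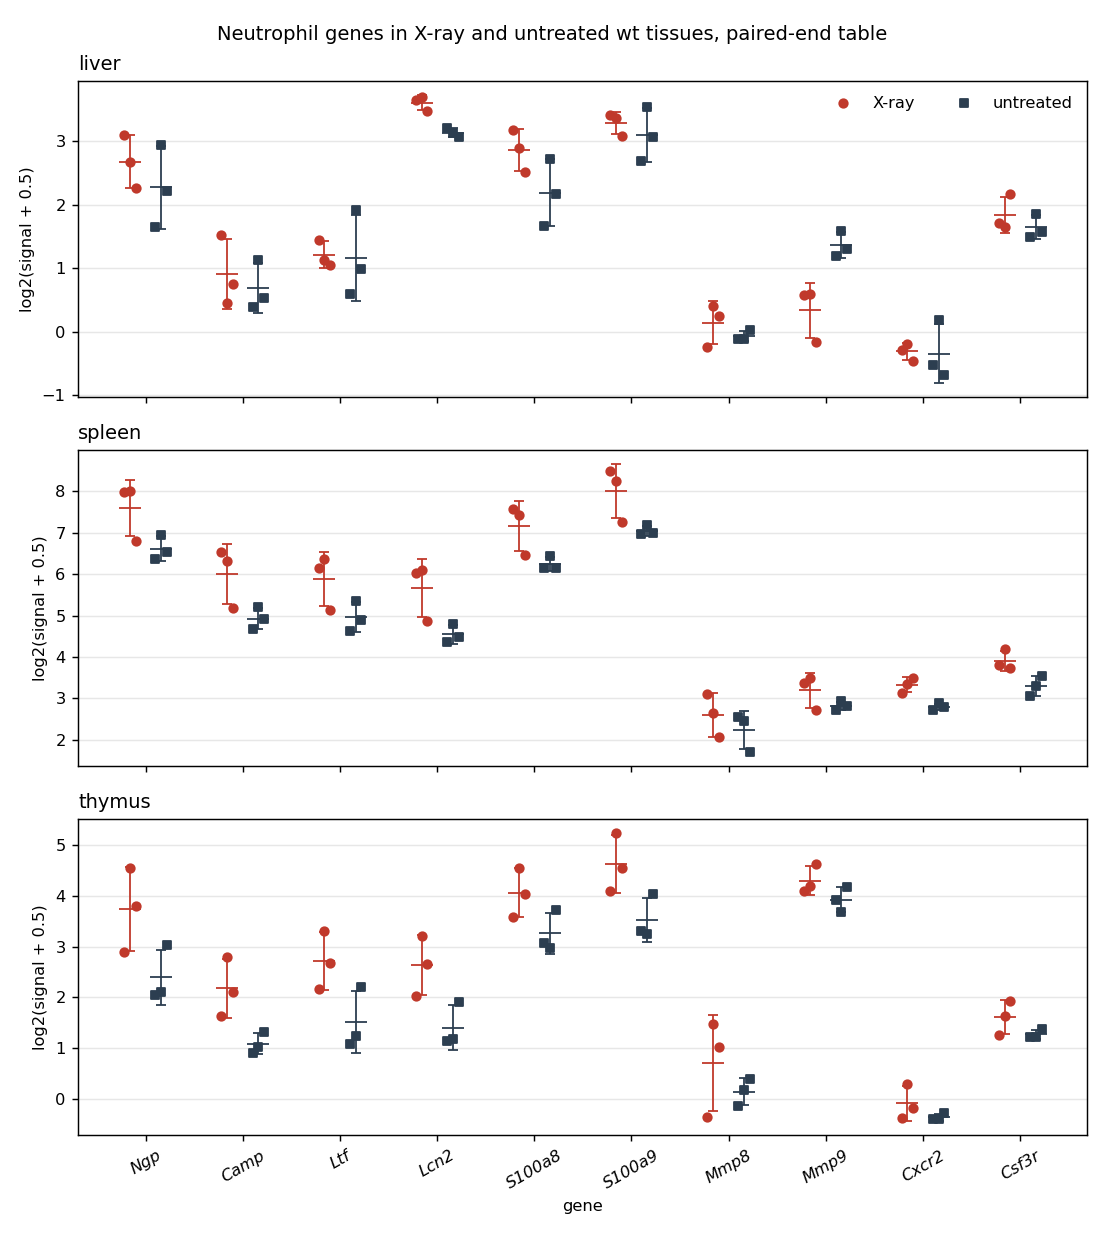
Signal of the 10 neutrophil genes in the paired-end libraries, as log2(signal + 0.5) on the vertical axis, with X-ray (red circles) left of untreated (dark squares) in each wt tissue. Points are libraries, and bars give the mean ± SD of 3. Spleen and thymus means of every gene lie higher after X-rays, and in liver the Mmp9 points after X-rays lie below the untreated ones.

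Liver gave little signal in the paired-end table, and no neutrophil gene passed there. Ngp had 8.02, 5.88 and 4.31 in X-ray livers, against 2.64, 7.20 and 4.15 in untreated livers, and the groups overlapped. S100a8, at 8.49, 6.90 and 5.22 in X-ray livers, against 2.67, 6.08 and 4.00 in untreated livers, overlapped as well. Lcn2 had 12, 12.4 and 10.6 in X-ray livers, against 8.76, 8.19 and 7.87 in untreated livers, and was the gene higher without overlap, at 0.47 ± 0.13 (adjusted p = 0.190).

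The remaining genes overlapped between X-ray and untreated livers. Camp had 2.38, 0.867 and 1.17 in X-ray livers, against 0.814, 1.69 and 0.939 in untreated livers. Ltf had 2.23, 1.70 and 1.57 in X-ray livers, against 1.01, 3.26 and 1.48 in untreated livers. S100a9 had 10.1, 9.83 and 7.96 in X-ray livers, against 5.93, 11.1 and 7.87 in untreated livers. Both receptors were low, with Csf3r at 2.77, 2.64 and 3.98 in X-ray livers, against 2.31, 3.11 and 2.48 in untreated livers. Cxcr2, at 0.322, 0.377 and 0.228 in X-ray livers, against 0.195, 0.635 and 0.121 in untreated livers, and Mmp8, at 0.346, 0.829 and 0.685 in X-ray livers, against 0.423, 0.423 and 0.515 in untreated livers, were too low to test.

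Mmp9 stood in the other direction, at 0.990, 1.02 and 0.392 in X-ray livers, against 1.79, 2.51 and 1.97 in untreated livers. Its difference of -1.03 ± 0.25 (adjusted p = 0.165) did not pass, and without X-ray replicate 1 it read -1.14 with an adjusted p of 0.0264. With limma 0 of the 8 genes tested were called, 3 had an unadjusted p under 0.05 and edgeR called 0, where 0.242% of 13250 tested genes were called. Over all genes 13.5% were higher and 13.9% lower without overlap.

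Mmp9 was also the gene whose X-ray difference depended on the tissue. The F test over the 18 paired-end libraries gave F = 12.3 (adjusted p = 0.00558) for Mmp9, a test that called 30.5% of 15654 tested genes. The spleen difference exceeded that of liver by 1.40 ± 0.33 (adjusted p = 0.00549) and the thymus difference exceeded it by 1.40 ± 0.33 (adjusted p = 0.0110), contrasts in which 26.4% and 15.5% of all genes were called. For the other 9 genes the adjusted p of the F test ran from 0.197 to 0.893, so a difference between spleen and thymus in their response was not shown.

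Levels by tissue separated Mmp9 from the rest. Among the 10 genes of the paired-end table, the calprotectin gene S100a9 was the most abundant per length in spleen, with 521 units of signal per kb of annotated exon after X-rays and 253 untreated, followed by S100a8 with 217 and 109, Ngp with 169 and 81.2, and Camp with 90.8 and 39.9. Lcn2, Ltf, Csf3r, Cxcr2, Mmp9 and Mmp8 followed, between 20.6 and 2.41 per kb after X-rays. For 9 of the 10 genes the X-ray spleens and then the untreated spleens had the highest mean signals of the 6 paired-end groups. Mmp9 had its highest means in thymus, with 5.49 per kb after X-rays and 4.19 untreated, against 2.52 and 1.86 in spleen. Neighbours in these orders often overlapped, as did 4 of the 5 neighbouring pairs for Ngp and 2 of the 5 for Mmp9.

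The single-end table had another order in liver. The wt livers came next after the wt spleens for Ngp, Camp, S100a8 and S100a9, with mean signals of 229 ± 88.3 for Ngp and 213 ± 86.3 for S100a9 (SD, n = 3 libraries). In d24 livers those genes averaged 6.08 ± 8.53 and 16.7 ± 11.6. Wt thymuses were lowest for Ngp, Camp, Ltf, Lcn2, S100a8, S100a9, Mmp8 and Csf3r.

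Ratios of 2 genes within a library do not depend on its scaling. Lcn2 stood at 0.289 to 0.326 of Ngp in d24 spleens, against 0.191 to 0.214 in wt spleens of that table, and at 0.257 to 0.266 after X-rays, against 0.221 to 0.244 in untreated spleens. Camp stood at 0.102 to 0.206 of Ngp in d24 spleens, against 0.193 to 0.398 in wt spleens. Mmp9 was 0.0851 to 0.244 of Ngp in d24 spleens, against 0.00714 to 0.0295 in wt spleens, and Csf3r was 0.0430 to 0.406, against 0.0109 to 0.0153. Relative to Ngp, receptor and gelatinase transcripts were thus a larger share in d24 spleens than in wt spleens, without overlap between the groups. Ngp had the larger fall, so these ratios restate the differences given above, and they were not tested. In paired-end thymus Mmp9 was 0.777 to 2.39 of Ngp after X-rays and 2.31 to 3.99 untreated, against at most 0.0742 in the paired-end spleens.

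Across libraries Ngp, Camp, Ltf and the calprotectin genes moved together, and the other genes followed less evenly. With each gene centred on its tissue mean over the 18 libraries of a table, the 10 pairs among Ngp, Camp, Ltf, S100a8 and S100a9 correlated at 0.862 to 0.969 in the single-end table and 0.907 to 0.974 in the paired-end table. Over all 45 pairs the median was 0.719 in the single-end table and 0.692 in the paired-end table. Lcn2 followed the mean of the other 9 genes at 0.930 in the paired-end table and at 0.614 in the single-end table, which holds the liver with 1200.02 of Lcn2. Mmp8 followed the mean of the other 9 at 0.931 in the single-end table and at 0.672 in the paired-end table. Cxcr2 followed least in the single-end table, at 0.307, and Mmp9 least in the paired-end table, at 0.408. The libraries share their group differences and depth, so these values describe the tables and are not tests.

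The 8 genes outside the list whose pattern was most like the mean of the 10, among 11804 ranked, were Itgb2l, Chil3, Cd177, Trem3, Stfa2l1, Ifitm6, Anxa1 and Ly6a2. The measure was the smaller, over both tables, of the correlation across 18 tissue-centred libraries. Itgb2l, a beta integrin relative, had 0.947 in the single-end table and 0.929 in the paired-end table. Chil3, a chitinase-like protein made by myeloid cells, had 0.942 and 0.925, and Cd177, a neutrophil surface glycoprotein, had 0.889 and 0.909. The last of the 8, Ly6a2, had 0.788 and 0.789.

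Genes made earlier and later in the same lineage were read from lists beside the 10. In d24 spleen 6 of 7 primary granule genes were called lower, beside 1.24% of all genes, and their median was -5.60. Mpo, myeloperoxidase, had 1.07, 0.311 and 0 in d24 spleens, against 191, 204 and 319.8 in wt spleens, and fell by 8.08 ± 0.45 (adjusted p = 2.17e-06). Elane, neutrophil elastase, fell by 6.09 ± 0.60, Prtn3, proteinase 3, by 5.63 ± 0.60, and Ctsg, cathepsin G, by 5.60 ± 0.67. Of 20 other late neutrophil genes 7 were called lower, with a median of -1.98, among them Olfm4 at -2.37 ± 0.42 and Pglyrp1 at -2.39 ± 0.46. Cebpe, the factor needed for secondary granules, was the called member of 7 granulocyte transcription factors, at -2.75 ± 0.47 (adjusted p = 0.00891), with 2.95, 2.59 and 1.87 in d24 spleens, against 13.4, 15.1 and 35.3 in wt spleens.

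Lists of other blood lineages were read in the same d24 spleens. Of 8 megakaryocyte genes 7 were called lower, with Pf4 at -4.53 ± 0.46, and their sums were 48.6 to 56.1 in d24 spleens, against 289 to 502 in wt spleens. Of 9 eosinophil and mast cell genes 5 were called lower and 2 higher, with Prg2 at -4.80 ± 0.46, and sums of 86.4 to 329 in d24 spleens, against 1385 to 2444 in wt spleens. Of 13 monocyte and macrophage genes 3 were called lower, namely F13a1, Ccr2 and Ly6c2, and the median was -0.06. Of 8 B cell genes 1 was called lower, Cd79b at -2.08 ± 0.43, which edgeR did not call, with sums of 64.2 to 343 in d24 spleens, against 480 to 661 in wt spleens. All 8 B cell differences were negative, with a median of -1.64, and 6 had an unadjusted p under 0.05 in limma. The 12 erythroid genes had a median of -0.24, the 8 T cell genes -0.84 and the 8 mitosis genes -0.43, with 0 called by limma or edgeR in each and 1, 2 and 3 at an unadjusted p under 0.05. The part of these other lineages in the neutrophil differences was not tested.

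**Figure D4:**
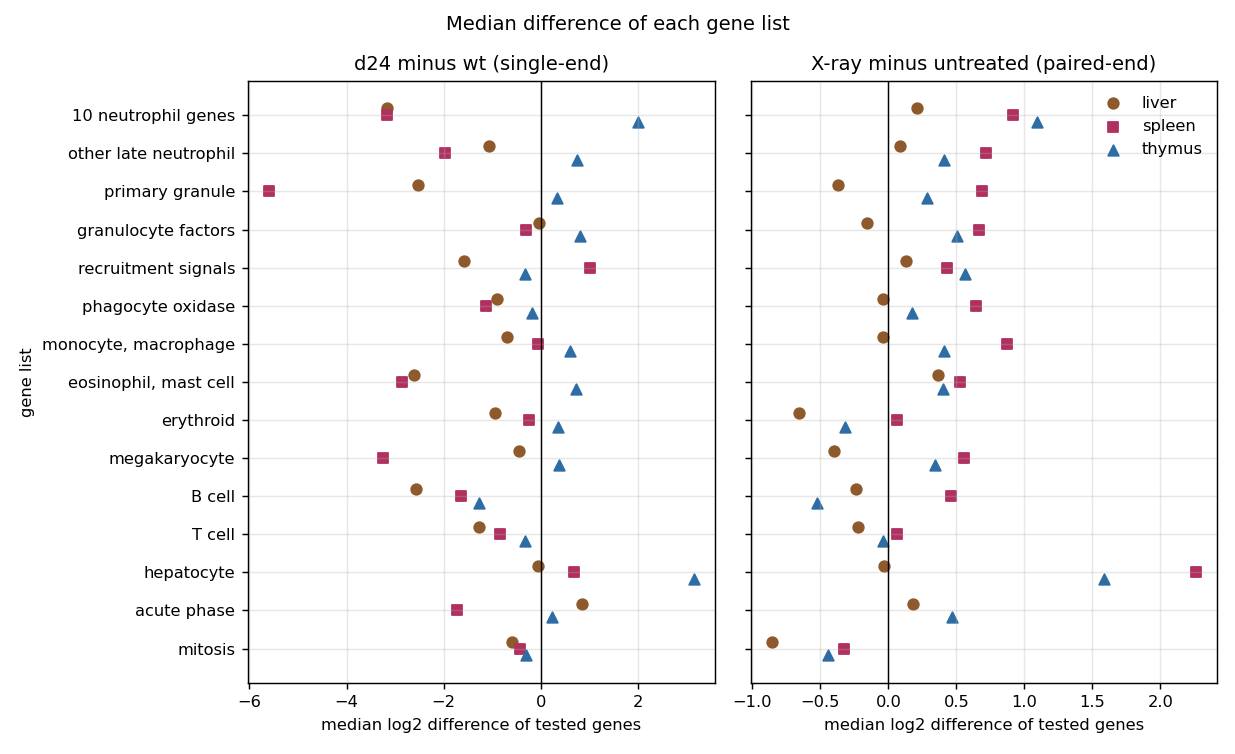
Median log2 difference of the tested genes of each list, d24 minus wt on the left and X-ray minus untreated on the right, with liver as brown circles, spleen as crimson squares and thymus as blue triangles. The primary granule genes had the lowest d24 spleen median, -5.60, and the hepatocyte genes the highest medians in thymus of d24 and in spleen after X-rays, 3.15 and 2.26.

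In d24 liver the primary granule list had 1 of 4 called, Mpo at -4.54 ± 0.57 (adjusted p = 0.0132), and the list of other late neutrophil genes had a median of -1.06 over 16 genes, with 0 called by limma or edgeR and 7 at an unadjusted p under 0.05. Among other lists, Ear1 and Prg2 of 6 eosinophil genes were called lower, at -4.80 ± 0.61 and -4.73 ± 0.61, as were Ppbp, a platelet chemokine that acts on Cxcr2, Alas2 of 11 erythroid genes and Rag1 of 8 T cell genes. Vwf of 4 megakaryocyte genes was called higher, at 3.61 ± 0.57. None of these calls, nor that of Mpo, was made by edgeR, which called 0 genes of the primary granule, eosinophil, recruitment, erythroid, T cell and megakaryocyte lists in liver. Hamp, the gene of the iron hormone hepcidin and 1 of 9 acute phase genes tested, was called higher at 8.32 ± 0.68 (adjusted p = 0.000864), with 1199.4, 422 and 506 in d24 livers, against 5.38, 0.166 and 1.51 in wt livers. The eosinophil and mast cell genes summed to 38.9 to 60.6 in d24 livers, against 194 to 359 in wt livers, and their part in the neutrophil differences was not tested.

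In X-ray spleen the other lists of the lineage had these counts, to be read beside the 19.5% of all genes called higher. Of 19 other late neutrophil genes 13 were called higher, with a median of 0.72, led by Hp at 1.44 ± 0.22, Mmp25 at 0.87 ± 0.14, Anxa1 at 0.81 ± 0.13 and Clec4d at 0.84 ± 0.15. Of 6 genes tested of the primary granule list 2 were called higher, Hk3 at 0.54 ± 0.14 and Ms4a3 at 0.66 ± 0.23. Mpo, Elane, Prtn3 and Ctsg of that list were not called by limma, though all 6 differences were positive. Of 7 granulocyte transcription factors 6 were called higher, led by Cebpd at 1.31 ± 0.16 and Cebpb at 1.34 ± 0.19. Of 6 phagocyte oxidase genes 4 were called higher, led by Cyba at 1.18 ± 0.13, and of 4 recruitment signals 3, led by Il1b, the interleukin 1 beta gene, at 0.84 ± 0.22. Of 13 monocyte and macrophage genes 10 were called higher, and all 13 had positive differences. The list summed to 1335 to 2082 in X-ray spleens, against 757 to 979.5 in untreated spleens, and its part in the neutrophil result was not tested.

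In X-ray thymus 4 of 11 other late neutrophil genes were called higher, with a median of 0.41, and Chil3 led at 1.12 ± 0.22, with 4.39, 6.90 and 4.72 in X-ray thymuses, against 1.57, 1.99 and 3.04 in untreated thymuses. Cd177 rose by 0.85 ± 0.18 and Pglyrp1 by 0.52 ± 0.15. Cebpb rose by 0.88 ± 0.18 while Gfi1, another granulocyte factor that thymocytes also express, fell by 0.63 ± 0.10. Il1b rose by 1.78 ± 0.33 and Cxcl12, the marrow retention chemokine, by 0.57 ± 0.09. Of 3 primary granule genes tested 1 was called, Prss57, which fell by 0.54 ± 0.16, while the other 2 had positive differences and the median was 0.28. Prss57 differed from the myeloid pattern in level, with a mean of 6.51 in untreated thymuses, against 0.431 in untreated spleens. Of 12 monocyte and macrophage genes 6 were called higher, beside 9.77% of all genes, and 10 had positive differences. The list summed to 598 to 864 in X-ray thymuses, against 473 to 529 in untreated thymuses, and its part in the neutrophil result was not tested.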

How the data were processed

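RNA of liver, spleen and thymus was kept in RNAlater, extracted with RNeasy Mini columns and made into stranded total RNA libraries, per the labels' protocols. In each deposited table the unit of signal is 1 read of a gene in 1000000 reads of a library whose size carries a scaling factor, as the values show, and edgeR and the build mm10 are named in the submitters' processing notes. Which aligner, counter and strand setting were used is not given in the sources used here. A plain CPM had been assumed in the design. Every column was a whole multiple of 1 step within a tolerance of 0.01 reads, in 100.0% of values of both tables, so whole reads were recovered from it. Of 36 columns in the paired-end table, 18 match no sample here and were not used.

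Gene numbers were matched to RefSeq symbols for 97.1% of single-end and 96.7% of paired-end rows. Groups followed the sample titles, 12 groups of 3 libraries. limma 3.58.1 in R 4.3.3 was run with a mean-variance trend on log2(signal + 0.5), keeping genes that reached a signal of 1 in 3 or more of the libraries compared, and p-values were adjusted by Benjamini-Hochberg across every gene kept. An F test with tissue contrasts compared the differences between tissues within each table. The code was tested on simulated data. The alternatives were pseudocounts of 0.1 and 2, no filter, median-ratio scaling, edgeR 4.0.16 quasi-likelihood tests on the recovered reads, the replicate number as a block, and leaving out each library. Levels per kb used GENCODE vM21 exon lengths. Same-numbered X-ray and untreated spleens deviated together (r = 0.177, 0.241 and 0.191), a hint of pairing from the data and not from the design. There the block called 8 of the neutrophil genes, as without it.

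All 10 genes were described in every comparison, with up to 4 called genes of smallest adjusted p from each of 14 other lists, apart from a withheld item that is not reported here. Saa1, Orm1 and Orm2 were named after their values were seen. The members and lists were chosen with earlier results of these data known.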

Additional observations from a re-analysis of the deposited data

Results flagged for a closer look

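In 4 genes the difference between conditions depended on the tissue by limma's F test. For the d24 difference it called 3 of the 10 genes, beside 0.988% of 16092 tested genes. For the X-ray difference it called 1 of the 10, beside 30.5% of 15654 tested genes, so such a call was common there. For the d24 difference these were Camp (F = 20.1, adjusted p = 0.0101), S100a9 (F = 14.5, adjusted p = 0.0247) and Ltf (F = 13.3, adjusted p = 0.0348), with lower values in d24 than in wt in liver and spleen and higher ones in thymus. For the X-ray difference it was Mmp9 (F = 12.3, adjusted p = 0.00558), with -1.03 in liver, against 0.38 in spleen and 0.37 in thymus.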

How the results depend on the processing

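Of 630 values of single genes under the alternatives, 530 kept their direction and their side of the threshold, 87 lost the call, 5 gained one and 8 turned direction. The values that turned were uncalled: Lcn2 in d24 liver at -0.58 and up to 1.82 as libraries were left out, Cxcr2 there at 0.22 and 0.07 in 2 such cases and down to -0.75 in others, Ltf in X-ray liver at -0.014 with edgeR and at -0.24, -0.04 and -0.07 in 3 cases and up to 0.42, and S100a9 there at -0.018 and up to 0.41. The cause was not tested for these or for the counts that follow.

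Among the neutrophil genes, d24 liver had 5 calls, against 3 with no filter, 0 with edgeR and 0 to 5 with a library left out, and d24 spleen had 6, against 1 with no filter, 1 with edgeR and 1 to 7 with a library left out. With a library left out, X-ray spleen (8) gave 1 to 9, X-ray thymus (6) 0 to 6, X-ray liver (0) 0 to 1 and d24 by tissue (3) 1 to 6. X-ray thymus gave 3 with no filter. A pseudocount of 2 gave 5 for d24 by tissue and 2 for X-ray by tissue, which had 1 call.

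Over all genes, d24 liver had 72 calls, against 44 with a pseudocount of 0.1, 43 with no filter, 11 with edgeR and 4 to 311 with a library left out. The 309 of d24 spleen became 159 with no filter, 145 with edgeR and 119 to 241 with a library left out. The 1 of d24 thymus became 2 with a pseudocount of 2, 0 with no filter, 2 with edgeR and 0 to 71 with a library left out. Leaving out a library gave 9 to 2836 for X-ray liver (32), 3136 to 7037 for X-ray spleen (5351), 1576 to 2851 for X-ray thymus (2945) and 84 to 253 for d24 by tissue (159).

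With the replicate block the counts over all genes were 33 in d24 liver, 574 in d24 spleen, 0 in d24 thymus, 5709 in X-ray spleen, 4270 in X-ray thymus and 52 in d24 by tissue. Only in X-ray spleen was r over 0.1 in each of the 3 pairs of same-numbered libraries. In X-ray thymus r was 0.055, 0.476 and 0.249, and 2 of the 3 pairs correlated best with their own number, a hint of shared deviation from the data and not from the design. In the d24 comparisons r was -0.268 to 0.007. The block added Mmp8 in d24 spleen (adjusted p = 0.0024) and Mmp9 in X-ray thymus (adjusted p = 0.0207) to limma's calls. Few reads limit the precision of Ngp, Camp, Ltf and Mmp8 in d24 liver and of several genes in wt thymus, where some values rest on 0 to 3 reads in libraries of depth like the others.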

Other observations

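The wt livers and spleens titled xray differed between the tables, which were normalised separately. Ngp had 135, 244 and 309 in the single-end wt livers and 8.02, 5.88 and 4.31 in the paired-end X-ray livers. Summed over the neutrophil genes, spleens had 2774 to 8318 in single-end wt, 141 to 1072 in d24 and 486 to 1068 in paired-end X-ray. In the same order livers had 473 to 1088, 68.3 to 1294 and 36.1 to 47.6. The d24 liver at 1294 was replicate 2, and the next was at 135. Wt thymuses went the other way, at 24.5 to 35.9 in single-end and 64.1 to 131 in paired-end X-ray libraries. Whether high wt or low d24 levels made the d24 falls was not tested. This is a description, with no test across the tables.

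In X-ray spleen the B cell gene Fcer2a, which encodes the low-affinity IgE receptor, rose by 2.86 ± 0.19 (limma, adjusted p = 2.64e-05) in the same libraries in which the neutrophil genes rose. Of the 8 B cell genes limma called 4 higher and 1 lower, and 3 had negative differences. Car1, the erythroid carbonic anhydrase, fell by 1.97 ± 0.24 (limma, adjusted p = 0.000607). It was the 1 call by limma among 12 erythroid genes, of which 7 had positive differences, with a median of 0.06. Over all genes 19.5% were called higher and 40% in either direction. In X-ray thymus 5 of 8 mitosis genes were called lower, led by Ccnb1, the cyclin B1 gene, at -0.84 ± 0.11 (adjusted p = 0.000981).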
